A study of Mus musculus with 18 samples.

Results

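The subject here is the Light-over-Total shift that followed loss of Prmt1, the change of a message in the Light polysome fraction beyond its change in total cytoplasmic RNA. For each gene it is Light knockout minus Light control, less Total knockout minus Total control, on the deposited scale of log2(CPM + 1), where CPM is counts per 1000000 reads. A shift above 0 means that the message's share of Light RNA, set against its share of Total RNA, was higher in knockout than in control cells. The shift uses 12 of the 18 libraries, in 4 groups of n = 3, and takes in all 17515 genes that passed a filter on low values, of 19862 in the table. Values are shares of a library, so a higher Light share is not a rate of translation.

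Prmt1 encodes the main enzyme for asymmetric dimethylation of arginine in mammalian cells, and RNA-binding proteins with glycine-arginine stretches are among its best known substrates. In a sucrose gradient, messages sediment by the ribosomes they carry. The Light fraction, below 3 ribosomes, therefore holds short coding sequences, which have room for few ribosomes, together with weakly loaded copies of longer ones. Messages of ribosomal proteins and elongation factors often begin with a C and a run of pyrimidines, the terminal oligopyrimidine (TOP) tract, through which mTOR signalling and the RNA-binding protein LARP1 regulate their translation.

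The cells are a murine osteosarcoma (mOS) line grown from a tumour of mice with conditional p53 and Rb knockout, labelled as mixed background and postnatal day 299. All 4 groups carry floxed Prmt1 alleles (Prmt1f/f) and a stably expressed CreER, a recombinase that tamoxifen activates. Light and Total control cells received ethanol (ETOH) and are labelled wild type, although they hold the same alleles. Light and Total knockout cells received 4-hydroxytamoxifen (4OHT). None of these 4 groups is of 4OHT-treated cells with intact alleles, and drug or Cre effects cannot be told apart from loss of Prmt1. The labels do not tie replicate numbers to separate cultures, so that p-values measure no more than the spread between samples, possibly technical. They also do not say whether the line is 1 clone.

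The 12 libraries held 32.8 to 57.9 M reads (M for 1000000). Replicates within the 4 groups correlated at 0.993 to 0.999 across genes. The knockout libraries numbered 1 lay farthest from their group means, at a root mean square of 0.239 (log2) in Light and 0.196 in Total, against 0.0907 to 0.170 for the other 10. Among osteoblast markers, the bone transcription factor Runx2 had a mean of 55.3 CPM and Col1a1, a collagen chain of bone, 1865 CPM, while the mature markers Bglap and Dmp1 were at 0.126 and 0.171 CPM. Of 17 tested, 8 reached 5 CPM. In Light 6 were called higher and 6 lower (26.8% and 12.7% of all genes), in Total 5 and 6 (16.1% and 10.3%). Their sums were 1490 to 1797 CPM in Light control and 3405 to 5229 CPM in Light knockout libraries. In Total the sums were 2615 to 3824 CPM in control and 4279 to 5202 CPM in knockout libraries. The median shift was 0.19, with 14 of 17 above 0. Markers of macrophages summed to 8.50 to 9.40 CPM in Light control, 17.2 to 23.2 in Light knockout, 6.70 to 8.79 in Total control and 16.7 to 20.1 CPM in Total knockout libraries. Epithelial markers summed to 4.06 to 5.40, 15.1 to 16.1, 6.06 to 8.85 and 17.1 to 21.2 CPM in these groups, endothelial markers to 10.8 to 15.3, 15.7 to 17.8, 7.89 to 9.22 and 13.0 to 14.7, and osteoclast markers to 3.50 to 4.37, 8.13 to 10.0, 6.70 to 7.58 and 8.51 to 10.2. Chondrocyte markers summed to 18.9 to 21.3, 33.1 to 53.3, 26.5 to 34.0 and 34.6 to 62.0 CPM, and adipocyte and muscle markers to 7.91 to 9.78, 9.97 to 11.1, 10.4 to 11.0 and 9.67 to 13.4. Knockout sums thus lay above control sums in both fractions for all of these lists but the last, which overlapped in Total. Called higher in Light and in Total were 4 and 4 of 8 macrophage, 7 and 5 of 10 epithelial, 3 and 3 of 9 endothelial, 3 and 1 of 6 osteoclast, 1 and 1 of 7 chondrocyte and 2 and 2 of 8 adipocyte and muscle markers. Of all genes tested, 26.8% were called higher in Light and 16.1% in Total. Median shifts of the lists for other cell types ran from -0.06 (epithelial) to 0.11 (osteoclast), and from -0.37 (macrophage) to 0.28 (chondrocyte) with voom, another fit used below. The leukocyte marker Ptprc lay at 0.0117 CPM, and the part of such cells in the results was not tested.

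Prmt1 (gene 15469, chr7:44976755-44986420 of mm10) fell in Total RNA of knockout cells, and its difference in Light RNA was not called. In Total it stood at 256, 277 and 285 CPM in control libraries 1 to 3 and at 147, 176 and 173 CPM in knockout libraries, without overlap. In Light it stood at 255, 243 and 218 CPM in control and 166, 229 and 235 CPM in knockout libraries, which overlapped. The fall in Total was called (-0.72 ± 0.21 log2, SE; limma adjusted p = 0.0202), the Light difference of -0.20 was not (adjusted p = 0.506), and the shift between them was 0.52 ± 0.30 (adjusted p = 0.423). Heavy RNA, with more than 3 ribosomes, fell by 1.88 for Prmt1 (adjusted p = 7.9e-06). The labels do not name the deleted exons, and reads of a shortened message would count as Prmt1.

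The fit across all 18 libraries called 0 of the 17515 genes for the shift (0.0%), at a limma adjusted p under 0.05, and the lowest adjusted p was 0.0666. At an unadjusted p under 0.05 it held 2851 genes, 16.3% of those tested, with 2374 shifts above 0 (13.6%) and 477 below 0 (2.72%). The same quantity tested with voom on recovered reads gave 0 calls and 2454 genes at an unadjusted p under 0.05, 1537 above (8.78%) and 917 below 0 (5.24%). Within each fraction the knockout differed from control far more often. In Light, 4702 genes were called higher (26.8%) and 2224 lower (12.7%), and in Total 2820 higher (16.1%) and 1808 lower (10.3%). The shift is a difference of 2 such differences, with a median SE of 0.216 among genes of at least 5 CPM.

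The number of genes called changed with the libraries in the fit, among other choices. With the 12 Light and Total libraries alone, 1143 genes were called (6.53%), 1020 higher (5.82%) and 123 lower (0.702%), and 1063 of them were among the 2851 above. Leaving out Heavy knockout library 1, which is no part of the contrast, gave 1405 calls, and leaving out Heavy knockout library 3 gave 544. The 12-library calls went to 0 without Light control library 2 or without Total control library 3, and 0 of the 1143 held without each of the 12 in turn. Without both knockout libraries numbered 1 the counts were 0 in the 18-library fit and 647 in the 12-library fit. For that reason the shifts below are given with their SE and as counts over groups of genes, and no single gene is called shifted.

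**Figure D1:**
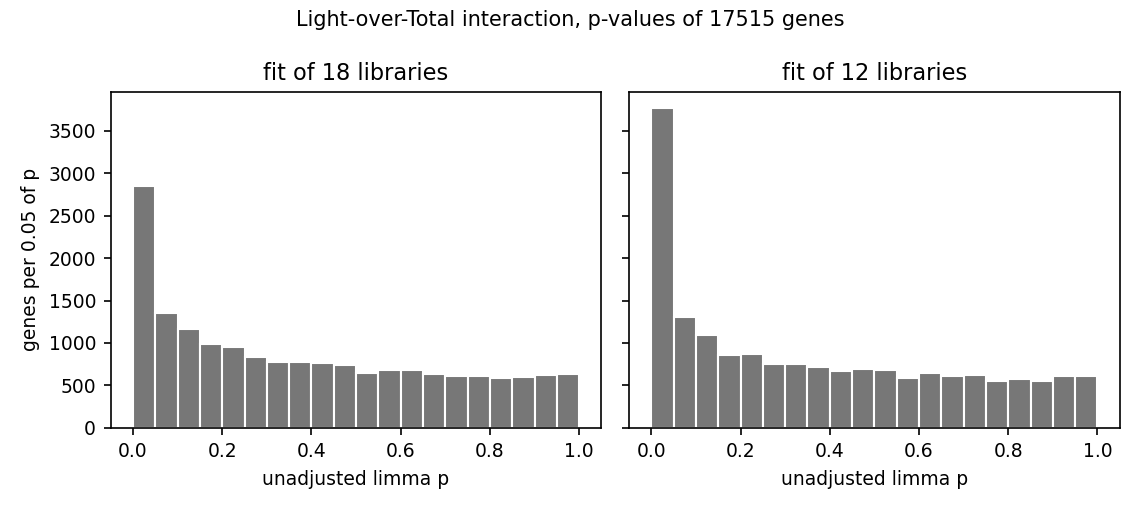
Number of genes (vertical axis) in each 0.05-wide interval of the unadjusted limma p (horizontal axis) for the shift, over 17515 genes, in the fit of 18 libraries and in that of the 12 Light and Total libraries. The lowest interval holds 2851 genes at left and 3768 at right, and the remaining intervals are much flatter.

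The direction of the shift over the transcriptome was set in part by scaling. The median over genes of at least 1 CPM was 0.13 with library totals, -0.01 after quantile normalization and -0.03 with median-of-ratios scaling. Of the genes at an unadjusted p under 0.05, quantile normalization put 1202 above (6.86%) and 1003 below 0 (5.73%). A separate voom fit of the 12 libraries, which differs in more than scaling, called 69 genes higher and 231 lower. The 12-library fit above called 1020 and 123. List medians are therefore to be read against the common median of the same setting. This was -0.01 with each library's trend with coding length subtracted, a setting used below that removes the common shift too. Part of a list's change under that setting is thus the common shift. The signs of the medians held under every setting tried for the lists below, except where a value of the other sign is given and for the mTOR, iron, upstream reading frame, snoRNA host and p53 lists, whose medians lie near 0.

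Messages lay closer to their Total share in knockout Light RNA than in control Light RNA. Across 9747 genes of at least 5 CPM, the SD of Light minus mean Total was 0.776, 0.763 and 0.700 (log2) in the control Light libraries 1 to 3 and 0.503, 0.590 and 0.535 in the knockout Light libraries. The 3 knockout values all lay below the 3 control values, and a comparison of 3 with 3 cannot go under a two-sided exact permutation p of 0.10. Setting each Light library against each single Total library of its genotype gave SDs of 0.688 to 0.864 for control pairs and 0.509 to 0.670 for knockout pairs. Of these genes, 1652 lay at least 1 log2 unit below Total in control Light RNA and 605 in knockout Light RNA. At least 1 unit above Total lay 137 genes in control and 4 in knockout cells. In Heavy RNA the SDs overlapped, at 0.813, 0.745 and 0.764 in control and 0.892, 0.707 and 0.642 in knockout libraries.

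Calls of Light against Total within a genotype went the same way. Control cells had 2897 genes higher in Light than in Total (16.5%) and 4902 lower (28.0%). Knockout cells had 1922 higher (11.0%) and 2752 lower (15.7%). Both comparisons enter the shift and share its libraries, so these counts restate it.

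The shift followed coding length. Among genes of at least 5 CPM, the 178 with coding sequences of up to 300 nt had a median shift of -0.42, the 1099 above that and up to 600 nt -0.31, and the 2773 above that and up to 1200 nt 0.02. The 3781 genes of more than 1200 and up to 2700 nt had a median of 0.28 and the 1614 over 2700 nt one of 0.38. Shifts lay above 0 in 5.06% of the shortest and in 92.5% of the longest class, against 63.6% of all 9747 genes. Short messages started high in Light and long ones low: in control cells, median Light over Total was 0.66 up to 300 nt and -0.89 over 2700 nt. In knockout cells the same medians were 0.23 and -0.43, with both ends nearer to 0.

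The gap between the longest and the shortest class could be read in each library. It was -1.48, -1.63 and -1.49 (log2) in control Light libraries 1 to 3 and -0.43, -0.90 and -0.69 in knockout Light libraries, so all knockout gaps were smaller than any control gap. Knockout library 1 had the smallest, and the other knockout libraries lay apart from the controls without it. In Heavy RNA the gap was 0.91, 1.15 and 1.34 in control and 2.16, 1.21 and 1.06 in knockout libraries, which overlapped. Median changes in Total RNA ran from -0.13 in the shortest to 0.03 in the longest class. Length was not separated here from GC content, half-life or other features that go with it, and their part was not tested.

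**Figure D2:**
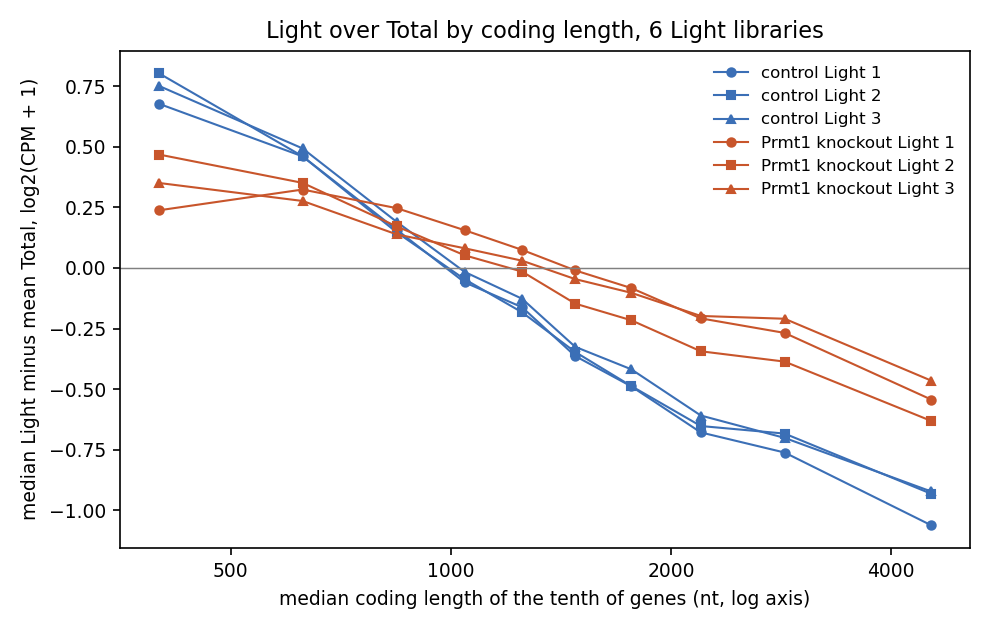
Median Light minus mean Total of the same genotype in log2(CPM + 1) (vertical axis) for 10 groups of about equal gene number, placed at their median coding length in nt (horizontal log axis), with 1 line for each of 6 Light libraries. The control lines run from 0.68 to 0.80 in the shortest group down to -0.92 to -1.06 in the longest, and the knockout lines from 0.24 to 0.47 down to -0.46 to -0.63.

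Ribosomal protein genes, which encode the protein parts of the ribosome and have short coding sequences, lay below the common median. The median shift was -0.49 for 49 large subunit genes and -0.54 for 33 small subunit genes, and 40 of 49 and 31 of 33 shifts were below 0, while 58.0% of all genes tested were above 0. At an unadjusted p under 0.05 there were 1 above and 11 below 0 in the large and 0 above and 7 below 0 in the small subunit, beside 13.6% and 2.72% of all genes. In the 12-library fit 1 higher and 21 lower were called in the large and 0 higher and 16 lower in the small subunit. Of all genes, that fit called 5.82% higher and 0.702% lower. Most of the change came in Light RNA, where 26 large and 24 small subunit genes fell (12.7% of all genes). Total RNA fell for 1 and 0 (10.3%). Heavy RNA also fell for 19 and 14, beside 10.4% of all genes.

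The list medians of Light over Total separated the 2 genotypes in every library. For the large subunit they were 0.64, 0.61 and 0.67 in control Light libraries 1 to 3 and 0.03, 0.27 and 0.05 in knockout libraries. For the small subunit they were 0.54, 0.56 and 0.56 and -0.09, 0.23 and 0.03. The lowest control value was thus above the highest knockout value in both lists. With the coding-length trend removed from each library the medians of the shift were -0.14 and -0.18.

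Rplp1, an acidic stalk protein of the large subunit (chr9:61913283-61914510 of mm10), had the lowest shift among ribosomal protein genes. It stood at 2546, 2847 and 2838 CPM in Total control and 2762, 2714 and 2828 CPM in Total knockout libraries. In Light it went from 1916, 2417 and 1871 to 854, 1122 and 1425 CPM, and the ranges did not overlap. The fall in Light was -0.89 ± 0.20 (limma adjusted p = 0.00193), and the shift was -0.90 ± 0.28 (adjusted p = 0.102). Rps12, a small subunit protein, fell in Light from 1474, 1716 and 1421 to 512, 830.1 and 1015 CPM (adjusted p = 0.00412) and had a shift of -0.78 ± 0.35. Shifts of -0.75, -0.70, -0.70 and -0.68 were measured for Rpl30, Rps27, Rps28 and Rpl23a, with SEs of 0.32, 0.29, 0.25 and 0.27. These 6 genes were chosen after their values were seen, and Rpl30 and Rps27 share nearly identical values with gene models that may be copies.

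The most abundant ribosomal protein genes differed from one another. Rplp0, the longest stalk protein, had a shift of 0.03 ± 0.24 and Rpsa, the laminin receptor protein of the small subunit, one of 0.35 ± 0.18. Rpl13 lay at -0.40 ± 0.32 and Rps18 at -0.50 ± 0.25. Rpl3 and Rpl4 have some of the longest coding sequences of the family, at 1209 and 1257 nt. Rpl3 went from 846, 777 and 814 to 1212, 1034 and 1139 CPM in Light (adjusted p = 0.00243) at 1666, 1699 and 1806 and 1725, 1753 and 1706 CPM in Total, a shift of 0.47 ± 0.15. Rpl4 had a shift of 0.29 ± 0.17. Both were chosen after their values were seen, and both moved in the direction opposite to the family's median.

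Genes with shifts on either side of 0 had a tract of the same kind at an annotated start. Where a gene had several annotated starts, the first listed with a tract is shown. Those shown for Rpl38 and Nap1l1 lie inside the span of the gene, downstream of its 5′ end. Below are 30 bases around the RefSeq start (build GRCm38.p6, 10 before and 20 from the start on), 5′ to 3′, with capitals for the unbroken run of C and T that opens with a C at the start itself. They were chosen after their shifts were seen, to show that range. Coordinates run from low to high, and Rps27, Rps18 and Rps6 are on the minus strand.
Rps27 (chr3:90213629-90213658, shift -0.70): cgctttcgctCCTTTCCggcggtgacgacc
Rplp2 (chr7:141447641-141447670, shift -0.63): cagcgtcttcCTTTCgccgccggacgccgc
Rps18 (chr17:33955646-33955675, shift -0.50): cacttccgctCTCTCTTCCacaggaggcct
Rpl38 (chr11:114668570-114668599, shift -0.50): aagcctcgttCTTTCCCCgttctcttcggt
Rps6 (chr4:86857348-86857377, shift -0.03): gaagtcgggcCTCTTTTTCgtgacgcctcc
Gnb2l1 (chr11:48800350-48800379, shift 0.44): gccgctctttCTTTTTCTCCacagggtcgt
Nap1l1 (chr10:111473217-111473246, shift 0.53): gctctcgggtCTTTTTTagcgccatctgct

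Searching the coding strand for a C at the start followed by at least 4 bases that are each C or T found a tract in 823 of 32851 RefSeq start windows (2.51%). A gene was counted if any of its annotated starts had a tract. Among tested genes with a window, 409 of 13324 had one (3.07%), with a median shift of 0.01. In the large subunit 7 of 36 genes with a window had a tract (median shift -0.56), in the small subunit 7 of 25 (-0.50), and in the list of other TOP messages 3 of 15 (0.44). The annotated start can lie some bases from the one cells use, and a match is a description of these letters. The coding sequences of Rps27, Rplp2, Rps18 and Rpl38 measure 252, 345, 456 and 210 nt, that of Rps6 747 nt, and those of Gnb2l1 and Nap1l1 951 and 1173 nt.

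The other messages listed as TOP, mostly longer ones, lay on the opposite side from the ribosomal proteins. Their median shift was 0.51, 17 of 22 were above 0, and 12 above and 0 below 0 had an unadjusted p under 0.05, beside 13.6% and 2.72% of all genes. With the coding-length trend removed the median was 0.27. Eef2, the elongation factor that moves the ribosome along, went from 1228, 959 and 986 to 2011, 2168 and 2497 CPM in Light and from 2415, 2733 and 3172 to 2888, 3291 and 3494 CPM in Total. All knockout Light values were above the control values and the Total values overlapped, with a shift of 0.85 ± 0.22 (adjusted p = 0.0675). Eef1a1, which brings aminoacyl-tRNA to the ribosome, had a shift of 0.56 ± 0.17, and its closely related copies make its count uncertain. Vim, an intermediate filament protein, had 0.90 ± 0.24, and Gnb2l1, the ribosome scaffold RACK1, 0.44 ± 0.18. Tpt1, a short member of 516 nt, lay at -0.49 ± 0.31. Larp1, the regulator of these messages, was at 0.57 ± 0.19.

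**Figure D3:**
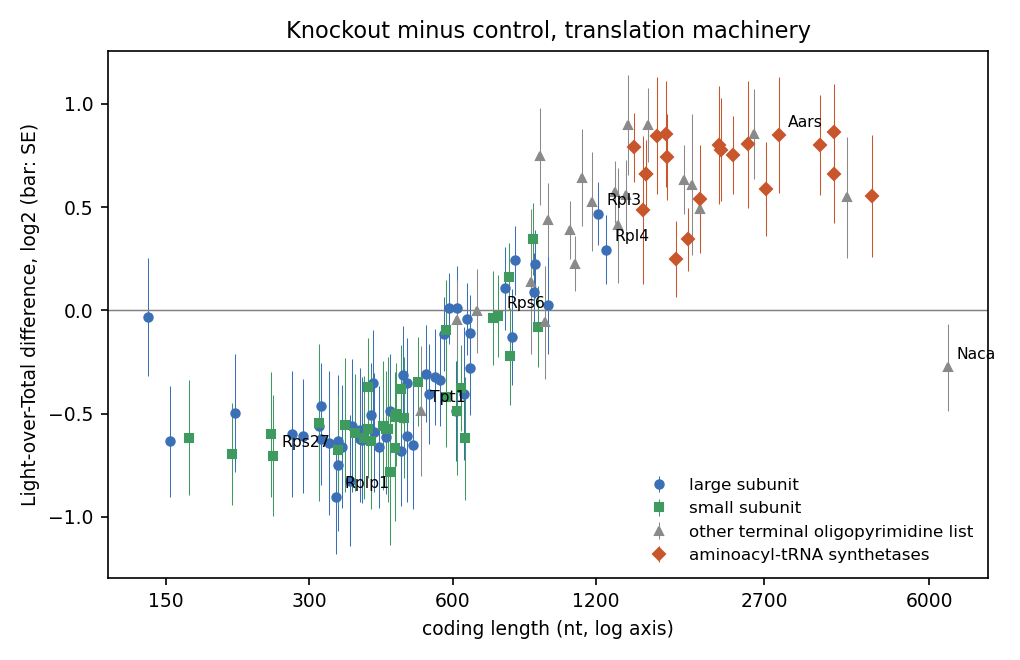
Shift of single genes in log2 with its SE as a bar (vertical axis) against coding length in nt (horizontal log axis), for ribosomal proteins of the large and small subunit, other messages listed as TOP and cytosolic aminoacyl-tRNA synthetases. Ribosomal protein genes below 600 nt lie mostly between -0.3 and -0.9, Rpl3 and Rpl4 above 0, and all 20 synthetases above 0.

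Cytosolic aminoacyl-tRNA synthetases, which charge tRNAs with amino acids, had the highest median shift of the lists, 0.75. All 20 shifts were above 0, and 16 of them had an unadjusted p under 0.05 (13.6% of all genes). In the 12-library fit 16 were called higher (5.82% of all genes). Medians of Light over Total were -1.12, -1.29 and -1.29 in control and -0.49, -0.69 and -0.60 in knockout Light libraries 1 to 3, with no overlap. In Light 17 of 20 rose (26.8% of all genes). In Total 2 rose and 2 fell (16.1% and 10.3%), and in Heavy 9 rose and 1 fell (18.5% and 10.4%). Aars, the alanine enzyme, went from 167, 130.0 and 134 to 442, 398 and 407 CPM in Light and from 362, 400.0 and 438 to 629.6, 606 and 694 CPM in Total, higher in all knockout libraries of both, with a shift of 0.85 ± 0.28 (adjusted p = 0.126). Kars, the lysine enzyme, had 0.34 ± 0.15, and Nars, the asparagine enzyme, 0.85 ± 0.26. With the coding-length trend removed the list's median was 0.44.

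Initiation factors, which recruit ribosomes to messages, had a median near the common median, with shifts from -0.53 to 0.89. At an unadjusted p under 0.05 there were 14 above and 1 below 0, beside 13.6% and 2.72% of all genes. In the 12-library fit 6 were called higher and 0 lower, beside 5.82% and 0.702% of all genes. The list's median shift was 0.15, 27 of 41 were above 0, and median-of-ratios scaling turned the median to -0.01. It ran from 0.07 (without Light knockout library 1) to 0.24 (without Light control library 3), with 0.23 without Light knockout library 3 and without Total control library 3. Eif4a1, the helicase of the cap-binding complex, rose in Light from 1056 to 1286 CPM over the control libraries to 1569.6, 1418 and 1345 CPM (adjusted p = 0.0322) and stood at 1777, 1768 and 1764 and 1528, 1705 and 1622 CPM in Total, a shift of 0.42 ± 0.14. Eif5a, a short factor that assists peptide bond formation, lay at -0.19 ± 0.35, and Eif4e, the cap-binding protein, at -0.18 ± 0.19. Ribosome biogenesis genes, which build ribosomes in the nucleolus, had a median of 0.49 with 37 of 40 above 0, and 0.20 with the coding-length trend removed. Nop56, a core protein of box C/D particles, had 0.66 ± 0.17, and Nhp2, a short H/ACA protein, -0.46 ± 0.36.

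Nuclear genes of the mitochondrion repeated the split between short and long messages. The 76 oxidative phosphorylation genes, which encode subunits of the respiratory complexes, had a median shift of -0.40 with 60 of 76 below 0, and 10 above and 11 below 0 at an unadjusted p under 0.05, beside 13.6% and 2.72% of all genes. Medians of Light over Total were 0.77, 0.93 and 0.78 in control and 0.35, 0.53 and 0.27 in knockout Light libraries. Atp5b, the catalytic subunit of ATP synthase, with 1587 nt, rose in Light from 653, 598 and 582 to 1192, 974 and 989 CPM (adjusted p = 6.7e-05) and stood at 1156, 1216 and 1242 and 1144, 1267 and 1310.3 CPM in Total. Its shift was 0.74 ± 0.16 (adjusted p = 0.0666). Cox6a1, a cytochrome oxidase subunit of 336 nt chosen after its values were seen, fell in Light from 569.6, 715 and 514 to 363, 458 and 401 CPM (adjusted p = 0.0214), with a shift of -0.69 ± 0.25. Cox4i1, another oxidase subunit, had -0.42 ± 0.31. With the coding-length trend removed the list's median was -0.04.

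Mitochondrial ribosomal proteins, 76 of them, had a median shift of -0.27, with 54 of 76 below 0, and -0.02 with the coding-length trend removed. Mrpl20 went from 363, 378 and 359 to 198, 236 and 217 CPM in Light and had a shift of -0.46 ± 0.32, and Mrpl53, chosen after its values were seen, -0.68 ± 0.25. The proteasome, which degrades ubiquitin-tagged proteins, lay on the other side with a median of 0.36 and 28 of 31 above 0. With the coding-length trend removed its median was 0.32. Psmd2, a long subunit of the regulatory particle, rose in Light from 314, 256 and 284 to 526, 543 and 517 CPM (adjusted p = 0.000107), with a shift of 0.91 ± 0.20 (adjusted p = 0.0666). Psmb4, a short core subunit, lay at 0.13 ± 0.20.

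**Figure D4:**
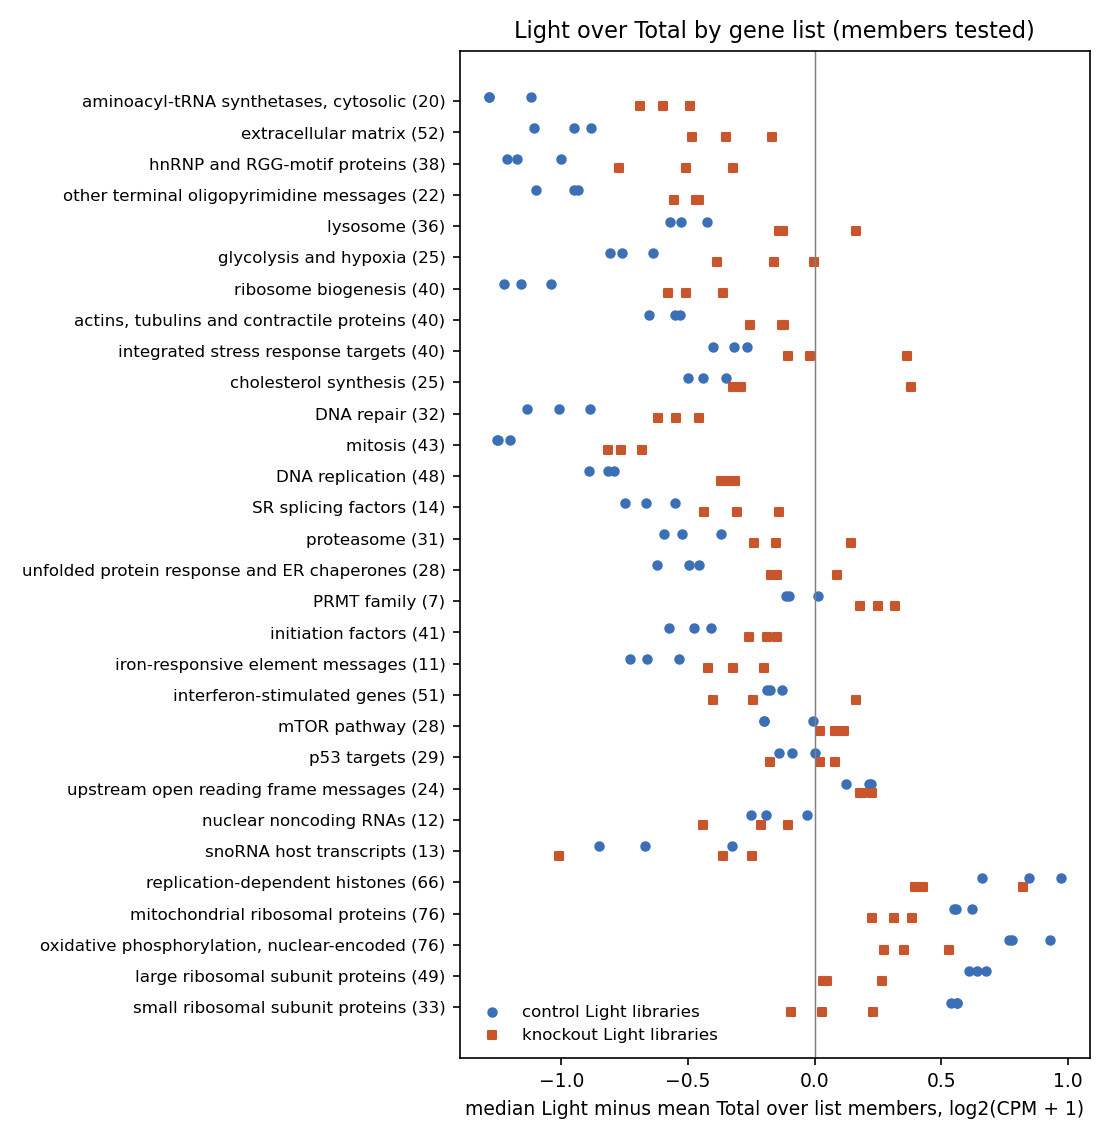
Median of Light minus mean Total of the same genotype, in log2(CPM + 1) (horizontal axis), over the members of 30 gene lists (vertical axis, number tested in brackets, highest median shift at the top), with 1 point for each of 6 Light libraries. Knockout points lie to the right of control points for the synthetases and to their left for both ribosomal protein lists, and they overlap for p53 targets and snoRNA hosts.

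Most matrix and lysosomal genes rose in Light, many of them in Total too, and the medians of their shifts lay above 0. Extracellular matrix genes, whose products are secreted around the cell, had a median shift of 0.59, 48 of 52 above 0 and 23 above 0 at an unadjusted p under 0.05 (13.6% of all genes). Higher values were called for 35 in Light (26.8% of all genes) and 22 in Total (16.1%), and the median shift was 0.22 with the coding-length trend removed. Bgn, the proteoglycan biglycan, rose from 1015, 981 and 963 to 2742, 2237 and 2614 CPM in Light and from 1651, 1827 and 1753 to 2989, 2763 and 2889.8 CPM in Total, with a shift of 0.63 ± 0.15 (adjusted p = 0.0666). Col1a1, the main collagen chain of bone, had 0.75 ± 0.34. Lysosomal genes had a median of 0.51 with 33 of 36 above 0, and 0.27 with the coding-length trend removed, beside 32 genes called higher in Light and 27 in Total. Lamp1, an abundant lysosomal membrane protein, rose in both and had a shift of only 0.11 ± 0.18.

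Genes of the unfolded protein response and its chaperones had a median shift of 0.24, with 17 of 28 above 0. That median was 0.12 without Light knockout library 1, 0.15 without Total control library 1, 0.13 with the coding-length trend removed and 0.07 with median-of-ratios scaling. P4hb, a disulfide isomerase, had 0.76 ± 0.20 and the lectin chaperone Calr 0.80 ± 0.23 (adjusted p = 0.0696 and 0.0792). Calr went from 770.5, 750.4 and 676 to 1285, 1054 and 1087 CPM in Light, while its Total values of 1517, 1897 and 1635 and 1576, 1495 and 1407 CPM overlapped. Targets of the integrated stress response, the programme that amino acid shortage and other stresses switch on, had a median of 0.43 with 32 of 40 above 0 and 28 called higher in Light, beside 26.8% of all genes. The median was 0.18 without Light knockout library 1, 0.29 without Total knockout library 2 and 0.23 with the coding-length trend removed. Medians of Light over Total in the knockout libraries were 0.36, -0.11 and -0.02, with library 1 apart. Atf4, its transcription factor, had -0.09 ± 0.22, and the amino acid transporter Slc7a5 0.46 ± 0.17. Cholesterol synthesis genes had a median of 0.42, with 19 of 25 above 0, and library 1 stood apart from the other knockout Light libraries in Light over Total (0.38, -0.29 and -0.32). The median was 0.19 without that library and 0.16 with the coding-length trend removed.

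Glycolysis and hypoxia genes, of which the first turn glucose into pyruvate, had a median shift of 0.49 with 21 of 25 above 0 and 15 above 0 at an unadjusted p under 0.05 (13.6% of all genes). Pkm, the last enzyme of glycolysis, rose from 1097, 792 and 940.0 to 2499.8, 2159 and 2514 CPM in Light (adjusted p = 2.1e-05) and stood at 2065, 2136 and 2483 and 2559.8, 2793 and 3378 CPM in Total, where the difference was not called. Its shift was 0.97 ± 0.25, that of Eno1, which makes phosphoenolpyruvate, 1.00 ± 0.23, and that of Ldha, the lactate dehydrogenase chain, 0.79 ± 0.16 (adjusted p = 0.0675, 0.0666 and 0.0666). Removing the coding-length trend left the list's median at 0.46.

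Interferon-stimulated genes, which act in antiviral defence and antigen presentation, rose in both fractions. Median changes were 1.07 in Light and 1.02 in Total. Called higher were 38 and 36 of 51 genes, beside 26.8% and 16.1% of all genes, and 0 were called lower in either. The median shift was 0.05, and it was -0.14 without Light knockout library 1 and -0.06 without Total knockout library 2. With voom, and likewise with a pseudocount of 0.1, it was 0.21. A mean of at least 5 CPM was reached by 24 of the 51. B2m, the light chain of MHC class I, stood at 359.5, 368 and 439 and 539, 483 and 391 CPM in Light and rose in Total from 307, 283 and 241 to 541, 477 and 401 CPM, with a shift of -0.50 ± 0.23. Tapbp, which loads peptides onto class I, had 0.52 ± 0.31.

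RNA-binding proteins and the genes of cell division shared a pattern of lower Total medians and Light medians near or above 0. The 38 hnRNP and RGG-motif genes, a class that includes known Prmt1 substrates, had a median shift of 0.55, 36 of 38 above 0 and 20 above 0 at an unadjusted p under 0.05 (13.6% of all genes), a median of 0.32 with the coding-length trend removed, and median changes of 0.37 in Light and -0.30 in Total. Hnrnpm, a splicing regulator chosen after its values were seen, went from 102, 89.4 and 100.4 to 144, 138 and 138 CPM in Light and from 317, 273 and 280.4 to 223, 217 and 239 CPM in Total, a shift of 0.88 ± 0.26. The abundant members Rbm3 and Hnrnpab had -0.06 ± 0.22 and 0.18 ± 0.21. SR splicing factors had a median of 0.37, and 0.32 with the coding-length trend removed. Srsf2, one of the abundant ones, had 0.36 ± 0.13.

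DNA replication genes had a median shift of 0.39 with 39 of 48 above 0, mitosis genes 0.40 with 36 of 43, and DNA repair genes 0.41 with 26 of 32. With the coding-length trend removed these medians were 0.21, 0.14 and 0.04. Total RNA fell for 15, 13 and 15 of these genes (10.3% of all genes) and rose for 0, 0 and 1 (16.1%). Light RNA fell for 9, 8 and 6 (12.7%) and rose for 16, 8 and 7 (26.8%). Pcna, the sliding clamp, had a shift of 0.62 ± 0.19, and Mcm5, part of the replicative helicase, 0.96 ± 0.24 (adjusted p = 0.101 and 0.0669). Ccna2, a cyclin of S phase and mitosis, fell in both fractions and lay at 0.18 ± 0.22. Birc5, the short survivin message, also fell in both, with -0.27 ± 0.41. Parp1, which marks DNA breaks, stood at 61.4, 47.7 and 50.9 and 68.4, 72.6 and 74.8 CPM in Light and at 162, 171 and 183 and 107, 137 and 139 CPM in Total, a shift of 0.87 ± 0.25.

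Actin, tubulin and contractile genes had a median shift of 0.44 with 31 of 40 above 0, and 0.21 with the coding-length trend removed. Actb, the beta actin, rose in Light from 3151, 2531 and 2807 to 4617, 4229.8 and 4623 CPM (adjusted p = 0.00033), at overlapping Total values of 4911, 4955 and 5581 and 4324, 5402 and 5488 CPM, with a shift of 0.70 ± 0.17 (adjusted p = 0.0666). Actg1, the gamma actin, fell in Total from 3575, 2575 and 4177 to 961, 1592 and 2101 CPM (adjusted p = 0.00215) and stood at 3593, 2269 and 3214 and 2649, 2366 and 3203 CPM in Light, a shift of 1.06 ± 0.36.

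Several lists had medians near 0 or changed sign with the processing. Histone genes had a median shift of -0.26, with 59 of 66 below 0, -0.15 without Light knockout library 1 and 0.11 with the length trend removed. It was -0.60 with voom and -0.46 with a pseudocount of 0.1, and 20 of the 66 had a mean of at least 5 CPM. Hist1h2bc, an H2B gene, rose from 18.3, 21.5 and 19.8 to 98.7, 101 and 83.0 CPM in Light and from 9.17, 11.2 and 9.92 to 77.8, 61.8 and 61.5 CPM in Total, with a shift of -0.42 ± 0.24. Messages with upstream open reading frames had -0.06 over 24 genes, among them the polyamine regulator Oaz1, whose values nearly equal those of a pseudogene, at -0.32 ± 0.30. Messages with an iron-responsive element had 0.12, mTOR pathway genes 0.0038, p53 targets 0.00 and snoRNA hosts -0.11. Relative to the common median of 0.13, these lay at -0.0044, -0.12, -0.13 and -0.24. The upstream reading frame list lay at -0.19 on that measure. Fth1, the ferritin heavy chain, rose from 1791, 1786 and 1873 to 3789, 3499.8 and 3196 CPM in Total and from 611, 625 and 637 to 673, 1002 and 1324 CPM in Light, a shift of -0.32 ± 0.28. Nuclear noncoding RNAs had a median of -0.08, with Neat1, the paraspeckle RNA, at 0.70 ± 0.30. That median was -0.70 with voom and -0.38 with a pseudocount of 0.1, and only 3 of the 12 had a mean of at least 5 CPM. The oncogenes Myc and Ccnd1 had 0.23 ± 0.26 and 0.45 ± 0.27.

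The genes with the highest shifts among those of at least 5 CPM were chosen after their values were seen. Of the 12 highest, 11 had coding sequences of 1671 to 5595 nt, and Actg1, at 1.06, has 1125 nt. Dctn1, the large dynactin subunit (chr6:83165909-83200118 of mm10), led with 1.22 ± 0.26 (adjusted p = 0.0666). It rose in Light from 81.3, 63.1 and 61.6 to 175, 157 and 159 CPM (adjusted p = 6.0e-05) and stood at 172, 198 and 219.9 and 182, 199 and 222 CPM in Total, where the groups overlapped. Fbln1, the matrix protein fibulin, had 1.21 ± 0.29, Dock1, an activator of Rac, 1.14 ± 0.26, and Maged1 1.10 ± 0.30. Psap, the precursor of the lysosomal saposins, rose from 259, 238 and 209.5 to 1503, 1245 and 1229.8 CPM in Light and from 492, 564 and 524 to 1436, 1312 and 1403 CPM in Total, a shift of 1.09 ± 0.22. App, the amyloid precursor, the collagen chains Col6a2 and Col8a1 and the acid glucosidase Gaa had 1.09, 1.09, 1.09 and 1.06. Gsn, an actin-severing protein, and Os9, an endoplasmic reticulum lectin, had 1.07 each. These 11 lay 1 or more log2 units below Total in control Light RNA and less than 1 unit below in knockout Light RNA. Both values enter the shift, so choosing the highest shifts favours such genes. Actg1 lay at -0.18 in control and 0.88 above Total in knockout Light RNA. Over all genes tested, 25 had a shift of at least 1 and 0 had one of -1 or lower, but the balance depended on the processing. It was 25 to 2 with quantile normalization, 2 to 8 with median-of-ratios scaling, 900 to 1015 with voom, 136 to 90 with a pseudocount of 0.1 and 1 to 5 with the coding-length trend removed.

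**Figure D5:**
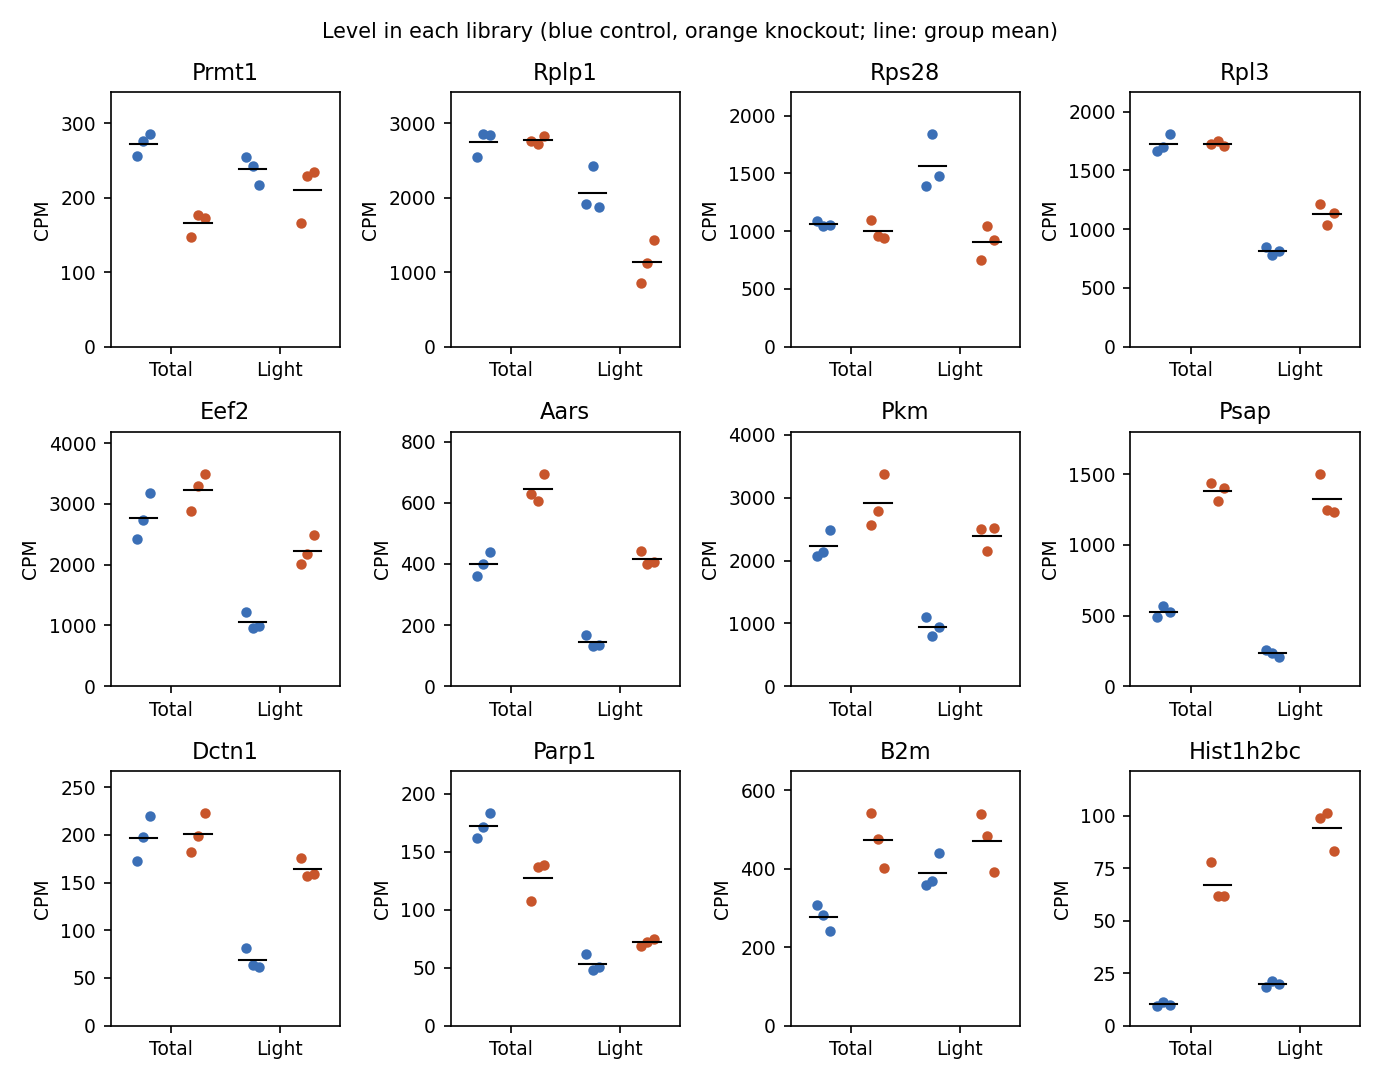
CPM (vertical axes, from 0) of 12 genes in each Total and Light library, with a point for each library (blue control, orange knockout) and a line at the group mean. In Light, knockout points of Rplp1 and Rps28 lie below all control points and those of Eef2, Aars, Pkm, Psap and Dctn1 above them, while Prmt1 is lower in Total and overlaps in Light.

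The called changes in Light and Total were set side by side. Of genes called higher in Light, 2300 were also higher in Total (median shift 0.11), 2382 were not called in Total (0.44) and 20 were lower in Total (0.70). Of genes called lower in Light, 1117 were also lower in Total (-0.04) and 1107 were not called in Total (-0.32). A further 671 genes fell in Total with no call in Light (0.35) and 520 rose in Total with none in Light (-0.17). These medians follow from the sorting by the same libraries and carry no test. Light values above and Total values below control without overlap occurred in 250 of 9747 genes (2.56%), and the reverse in 21 (0.215%).

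No source used here says whether strand was counted. Exons of Aars (Exosc6), Hars (Hars2), Nop56 (Idh3b), Rps28 (Kank3), Rpl23a (Tlcd1), Ccna2 (Exosc9), Lamp1 (Grtp1), Hnrnpm (March2), Hnrnpab (Phykpl), Nhp2 (Rmnd5b), Gnb2l1 (Trim41) and Ccnd1 (LTO1) overlap those of the gene in brackets, so their counts may hold its reads.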

How the data were processed

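RNA of the Light and Total fractions was measured in 12 libraries and that of Heavy in 6. The authors deposited a single table of log2(CPM + 1) values for 19862 genes, made per the submitters' processing notes with STAR on mm10 and edgeR. With the log2 undone, 100.0% of values came out as whole reads (tolerance 0.1 reads). The values were tested with limma, as planned for logged values.

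The model had 6 group means over 18 libraries, with trend and robust variances (limma 3.58.1, R 4.3.3). A gene entered the test if 3 or more libraries held a read, and was called if its p-value, Benjamini-Hochberg adjusted over all tested genes, was under 0.05. A log2 change of CPM + 1 understates that of low genes. Coding lengths, each gene's longest coding sequence in the GENCODE annotation of mm10 (RefSeq had been planned), were found for 89.3% of tested genes, and RefSeq gave names, coordinates and starts. Python 3.11.15 with pandas 2.3.3 and matplotlib 3.10.9 made summaries and plots.

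The lists and the comparison were chosen with earlier results of these data known. The naming rule took called genes that held without each library, which left 0, then the 2 most abundant members of each list, and always Prmt1, Atf4, Eif4e, Myc and Ccnd1. Other genes were chosen after their values were seen, among them the 12 highest and 12 lowest shifts of genes with at least 5 CPM, an unadjusted p under 0.05 and 1 sign under all 48 settings. In simulated data with 100 changed genes a size, the 18-library fit of 17515 genes recovered 11% of shifts of 0.58 and 54% of shifts of 1. It made 16 false calls among 17315 unchanged genes. The 12-library fit recovered 14% and 62%, with 7 false calls. In both fits false calls made up a larger share of the calls than 0.05. Noise was drawn separately for each gene and library, so that deviations shared by many genes of a library were not simulated. Each gene's SD was pooled over control and knockout within a fraction, so a wider spread of knockout libraries was not simulated either. The simulated shares therefore need not hold for the real fits. Alternatives were quantile, median-of-ratios and voom scaling, other filters and pseudocount, a block, subtraction of each library's trend with coding length (50 bins), and leaving out libraries.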

Additional observations from a re-analysis of the deposited data

Results flagged for a closer look

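For 7 named genes, every knockout Light library lay on one side of the control libraries and every knockout Total library on the other. Of 9747 genes of at least 5 CPM, 250 (2.56%) were higher in Light and lower in Total in this way and 21 (0.215%) the reverse. Rpl23a, Hars and Hnrnpm were named after their values were seen. Rpl23a was lower in Light and higher in Total, with a shift of -0.68. Higher in Light and lower in Total were Eif4a1 (0.42), Hars, the histidine enzyme among the synthetases (0.66), Parp1 (0.87), Hnrnpm (0.88), Nop56 (0.66) and Larp1 (0.57). Hars stood at 122, 111 and 116 CPM in control and 164, 148 and 144 CPM in knockout Light libraries and at 213, 213 and 216 and 155, 190.3 and 186 CPM in Total, and both of its changes were called. The test of the shift gave limma adjusted p-values of 0.204 (Rpl23a), 0.139 (Eif4a1), 0.0666 (Hars), 0.0828 (Parp1), 0.0891 (Hnrnpm), 0.0686 (Nop56) and 0.124 (Larp1), none under 0.05.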

How the results depend on the processing

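The count of genes called for the shift was 0 in the 18-library fit and in most of its alternatives, but 17 with quantile normalization, 548 without trend or robust variances, 339 with a mean of at least 1 CPM, 1143 with the 12 libraries alone, and 0 to 1405 over leaving out each of the 18 libraries. The highest values came without Heavy knockout libraries 1 (1405) and 3 (544), and without Total knockout libraries 2 and 3 it was 1 and 2. Starting from the 12 libraries alone, which was combined with other choices after seeing the data, it was 102 with quantile normalization, 0 with median-of-ratios scaling, 300 with voom, 1288 with the coding-length trend removed (359 higher and 929 lower), 647 without both knockout libraries numbered 1, and, over leaving out each library, 814, 0 and 318 (Light control 1 to 3), 968, 1576 and 481 (Light knockout), 830, 188 and 0 (Total control) and 446, 355 and 954 (Total knockout). The replicate block gave 625 calls, 602 higher and 23 lower, of which 533 were among the 1143, and the block with the length trend removed gave 0. Deviations from group means correlated between Light and Total libraries of the same number at 0.65, 0.56 and 0.46 in knockout cells, each library's best match, and at -0.68, 0.38 and -0.68 in control cells. Light control libraries 1 and 3 correlated best with Total 3 (0.74) and 1 (0.83). The numbers therefore did not pair the samples in both genotypes, and the knockout pairing is a hint from the data. Light over Total in knockout cells had 7298 calls with the trend removed and the block, and 2742 to 4688 over leaving out each library.

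Shifts over 2700 nt exceeded those up to 300 nt by a median difference of 0.79 in the main fit and 0.65 to 0.92 over left-out libraries. With the trend of coding length removed, the difference was -0.0028 (also with the block) and 0.0432 in the 12-library fit, by construction. List medians with that trend removed were, in the 12-library fit, -0.15 (large subunit), -0.20 (small subunit), 0.43 (synthetases), -0.0643 (oxidative phosphorylation) and 0.23 (matrix), and -0.14, -0.18, 0.44, -0.0391 and 0.22 in the 18-library fit. With median-of-ratios scaling they were -0.66, -0.72, 0.58, -0.57 and 0.42 in the 18-library fit, and -0.62, -0.67, 0.62 and -0.53 for the first 4 in the 12-library fit. With voom they were -0.58 for the large subunit, and in the 12-library fit -0.67, -0.73, 0.57, -0.58 and 0.43. Median-of-ratios scaling also moved other medians, to 0.34 (other TOP), 0.34 (lysosome), 0.32 (ribosome biogenesis), 0.32 (glycolysis), 0.27 (actins), 0.27 (DNA repair), 0.26 (stress response), 0.25 (mitosis), 0.25 (cholesterol), 0.22 (replication), 0.19 (SR factors), 0.19 (proteasome) and -0.44 (mitochondrial ribosome). Quantile normalization gave -0.37 for the large subunit in both fits and 0.58 and 0.57 for the synthetases. Without both knockout libraries numbered 1 the small subunit was at -0.40 and the synthetases at 0.63 in both fits. Leaving out each library gave -0.57 to -0.40, -0.64 to -0.44, 0.62 to 0.80, -0.47 to -0.33 and 0.47 to 0.65, and -0.14 to 0.22 for interferon-stimulated genes.

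Of 79 genes named, 12 changed sign under a setting, and of these only Fth1 had a main shift above its SE. With the length trend removed (18-library fit, with or without the block, then 12-library fit) Rplp0 was at -0.137 and -0.0673, Rps6 at 0.064 and 0.0523, Eif5a at 0.154 and 0.132, Lamp1 at -0.0901 and -0.0835, Ccna2 at -0.0712 and -0.0155, Birc5 at 0.137 and 0.117, Rbm3 at 0.288 and 0.266, and Myc at -0.0661 in the first. Median-of-ratios scaling in these fits put Rplp0 at -0.147 and -0.103, Psmb4 at -0.0464 and -0.0028, and Lamp1 at -0.0594 and -0.0158. Voom put Rplp0 at -0.0728 and, with 12 libraries, Rplp0 at -0.156, Psmb4 at -0.0562, Lamp1 at -0.0687, Ccna2 at -0.0064 and Hnrnpab at -0.0003. Quantile normalization put Atf4 at 0.046 and 0.0244 and Rps6 at 0.0015. Fth1 was at 0.0023 without both knockout libraries numbered 1. Over left-out libraries Atf4 ranged from -0.182 to 0.043, Rplp0 from -0.176 to 0.181, Rps6 from -0.113 to 0.0355 and Rbm3 from -0.143 to 0.0486. The values above 0 were 0.043, 0.0218 and 0.005 for Atf4 (without Light control 2, Light knockout 2 and Total knockout 1), 0.0071, 0.0234 and 0.0355 for Rps6 (without Light knockout 2 and 3 and Total knockout 1), and 0.0486 for Rbm3 (without Light control 3). Rplp0 fell below 0 without Light control 3 (-0.0061), Light knockout 3 (-0.176), Total control 3 (-0.0113) and Total knockout 1 (-0.0273). A count-based quasi-likelihood fit was planned and not run, because the deposited values are logged. The cause of these changes was not tested. Depths of 32.8 to 57.9 M reads (M for 1000000) leave genes of few reads imprecise, and the added 1 CPM understates their shifts.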
